A study of Mus musculus with 4 samples.

Results

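The H3K4 methyltransferase complexes were followed through 10 of their genes, chosen by symbol: the 6 enzymes with a SET domain (Kmt2a, Kmt2b, Kmt2c, Kmt2d, Setd1a and Setd1b) and the 4 subunits that all of these enzymes share (Wdr5, Ash2l, Rbbp5 and Dpy30). All 10 were among the 16375 genes listed. Of them, 9 had a mean FPKM (fragments per kilobase of gene per 1000000 fragments) of at least 0.5 over the libraries, the limit above which 8496 genes were used as background. Kmt2c, with a mean FPKM of 0.440, lay below that limit although 5405 to 6776 fragments were counted for it per library, because the deposited FPKM divides by the whole genomic span, introns included, which is 226986 bases for this gene.

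RNA was sequenced from mouse bone marrow-derived macrophages (BMDMs), which are bone marrow cells cultured with macrophage colony-stimulating factor. The 4 groups were wt cells without butyrate (WT control), wt cells with butyrate (WT butyrate), and the same pair from lncLy6c KO mice (LNCKO control and LNCKO butyrate), with 1 library each. Butyrate, a short-chain fatty acid made by gut bacteria that also inhibits histone deacetylases, was given at 500 µM for 24 h. The knockout removes lncLy6c, a long non-coding RNA, in all cells of mice made with CRISPR-Cas9 on a C57BL/6J background, and how many animals or founder lines lie behind a library is not given in the sources used here. No row carries the name lncLy6c, so its loss was not analysed here, and the library names of the LNCKO samples contain NC and R3 and not the condition, so that each LNCKO value depends on the sample titles.

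Because every group held 1 library, differences could not be checked against replicates and nothing was tested. Intervals given here are 95% intervals of the counts and cover counting error only, not the spread between libraries. Those of ratios are exact (Clopper-Pearson), and those of single values are exact Poisson limits. Those of a difference between log2 changes use a normal approximation. Fragments carry no molecular identifiers, so copies of a molecule may be counted more than once and the intervals may be too narrow. Library totals ranged from 53363944 to 65521713 fragments. In such bulk samples, fewer cells of a type and less RNA per cell cannot be told apart. Summed FPKM of 8 macrophage markers ranged from 601.8 to 642.5, none of them being at 0. Summed FPKM of 8 markers of neutrophils and their precursors was 2591 in WT control and 2996 in WT butyrate, with 2245 in LNCKO control and 2162 in LNCKO butyrate. With butyrate in WT, 5 of these 8 markers were higher and 3 were lower, so the higher sum was not shared by all of them. For 7 B cell markers the summed FPKM was 209.1, 163.6, 213.3 and 215.7 in the same order of libraries, and for 5 mast cell and basophil markers 46.0, 34.7, 71.6 and 70.8. Of the latter 5, 2 were higher and 3 lower with butyrate in WT. The sums for 6 T and NK cell markers ranged from 10.9 to 15.8, with Gzma at 0 in a library. Nearly all of each sum was Nkg7 (10.5 to 15.6), and the others, all below the FPKM limit, were higher in both LNCKO libraries than in both WT libraries. For 5 stromal markers the sum was 9.81 in WT control and 8.34 in WT butyrate, with 2.64 in LNCKO control and 5.53 in LNCKO butyrate. Summed over 3 globin genes of red cell precursors (Hba-a1, Hba-a2 and Hbb-bt) it was 5.91 and 6.62 in the WT libraries and higher, 22.6 and 64.5, in the LNCKO libraries. Markers of other bone marrow cells were thus present at levels that differed between the groups, and their part in the values that follow was not tested. The summed FPKM of 4 Y-linked genes was 0.136 and 0.0657 in the WT libraries without and with butyrate and 10.3 and 11.5 in the LNCKO libraries, so that genotype and the sex of the donor mice cannot be told apart in any comparison of LNCKO with WT.

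Methylation of lysine 4 on histone H3 marks active promoters and enhancers. In mammals it is written by large complexes in which 1 of the 6 SET enzymes is joined to the shared core of Wdr5, Rbbp5, Ash2l and Dpy30, without which the enzymes have little activity. Setd1a and Setd1b write most trimethylation at promoters, Kmt2a and Kmt2b (MLL1 and MLL2) act at chosen promoters, and Kmt2c and Kmt2d (MLL3 and MLL4) place monomethylation at enhancers. The study asked whether butyrate acts on Runx3, the gene of a transcription factor, through lncLy6c and H3K4me3, and it knocked down Mll and the 4 core subunits. The RNA values below address whether the genes of the writer complexes themselves differed in level between these libraries.

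None of the 10 genes differed by as much as 1.2-fold between any compared pair of libraries, beside 6.21% to 19% of all genes tested that did so in a comparison. Over 40 gene-by-comparison ratios of deposited FPKM, the lowest was 0.844, for Setd1b with butyrate in WT, and the highest was 1.16, for Dpy30 in LNCKO control against WT control. The counting interval lay above a ratio of 1 in 13 of the 40, below it in 7 and spanned it in 20. Those numbers were the same with the fragments of an overlapping gene, Gm49388, added to Setd1a as described below, but the ratio of Setd1a then turned direction in 2 comparisons. By these intervals the depth was therefore enough to separate differences of under 10% between single libraries, but not to say whether libraries of the same group would differ as much.

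**Figure D1:**
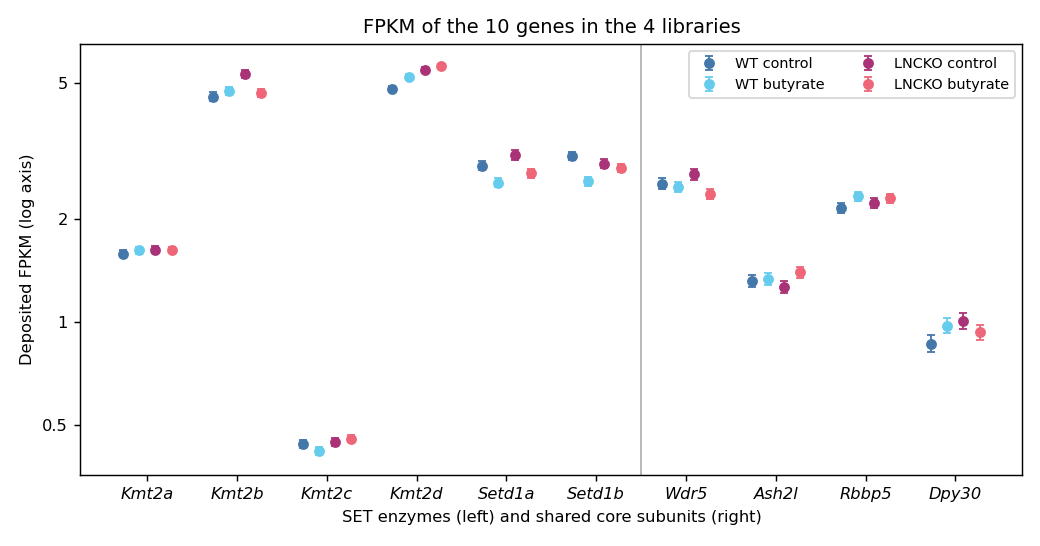
Deposited FPKM (log axis) of the 6 SET enzymes and the 4 shared core subunits in the 4 libraries, with bars for the 95% counting interval of each value. The 4 points of a gene lie close together, from a span of 1.03-fold between lowest and highest for Kmt2a to 1.21-fold for Setd1a.

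The level of each gene relative to the others was taken per kilobase of its merged exons and per 1000000 fragments, since the deposited FPKM on the genomic span cannot be compared between genes of different intron content. On this scale the median over the libraries was highest for 3 core subunits, Dpy30 (20.4), Rbbp5 (16.3) and Wdr5 (14.9). The enzymes followed, with Kmt2d at 10.6, Kmt2b at 9.74, Setd1a at 9.64, Kmt2a at 7.58, Setd1b at 6.27 and Kmt2c at 4.95. Ash2l was lowest at 4.69, but its place depended on the length used, because its merged exons are 8969 bases and its longest coding transcript 3307 bases. Per kilobase of the longest coding transcript Ash2l stood at 12.7, as the 4th of 10, so that by median all 4 core subunits then lay above all 6 enzymes, although in LNCKO control Kmt2b (12.4) lay above Ash2l (12.1) on that scale. Neighbours in this order were not always apart. Across the libraries Kmt2d (9.51 to 11.1), Kmt2b (9.45 to 11.0) and Setd1a (8.82 to 10.6) overlapped in range, as did Rbbp5 (15.5 to 16.8) with Wdr5 (14.1 to 16.1) and Kmt2c (4.68 to 5.10) with Ash2l (4.47 to 4.94). Whether fragments within introns were counted is not stated in the sources used here. If they were, levels per exon length are too high, most so for genes with little exon. Exons made up 4.68% of the span of Dpy30, 13.9% for Rbbp5 and 16.8% for Wdr5, but also 8.94% for Kmt2c, which stood low. The order of the genes is uncertain to that extent.

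Kmt2a (ENSMUSG00000002028, GRCm38 chr9:44803355-44881296, minus strand) encodes MLL1, the enzyme known for maintaining Hox gene expression in blood cells. Its FPKM was 1.58 in WT control and 1.62 in WT butyrate, with 1.63 in LNCKO control and 1.62 in LNCKO butyrate, from 6767 to 8287 fragments. It was the steadiest of the 10 genes, and its counting interval spanned a ratio of 1 in all 4 comparisons. With butyrate the ratio was 1.02 (0.989 to 1.06) in WT and 0.997 (0.966 to 1.03) in LNCKO. Between LNCKO and WT it was 1.03 (0.993 to 1.06) without butyrate and 1.00 (0.971 to 1.03) under it. The sign of these small values depended on the scaling: it flipped with butyrate in WT when FPKM was rescaled to 1000000 per library, and with butyrate in LNCKO and between the genotypes under butyrate when libraries were scaled by their median ratio.

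Its paralog Kmt2b (ENSMUSG00000006307, chr7:30568858-30588726, minus strand), which encodes MLL2, had an FPKM of 4.56 in WT control and 4.74 in WT butyrate, with 5.31 in LNCKO control and 4.67 in LNCKO butyrate. LNCKO control stood above the other libraries. LNCKO control was thus 1.16 times WT control (interval 1.12 to 1.21), and butyrate in LNCKO gave a ratio of 0.880 (0.849 to 0.913). With butyrate in WT the ratio was 1.04 (0.999 to 1.08), and under butyrate the genotypes stood at 0.986 (0.951 to 1.02), both spanning 1 and both with a sign that flipped when FPKM was rescaled. Per kilobase of exon Kmt2a had 0.784 of the level of Kmt2b in WT control, 0.772 in WT butyrate and 0.784 in LNCKO butyrate, and 0.692 (0.668 to 0.717) in LNCKO control.

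Kmt2c (ENSMUSG00000038056, chr5:25271798-25498783, minus strand) encodes MLL3, 1 of the pair of enhancer monomethylases. Its FPKM was 0.439 in WT control and 0.418 in WT butyrate, with 0.446 in LNCKO control and 0.456 in LNCKO butyrate. WT butyrate was the lowest, at 0.953 (0.918 to 0.989) of WT control, and LNCKO butyrate was 1.09 (1.05 to 1.13) times WT butyrate. In the other comparisons, butyrate in LNCKO (1.02) and LNCKO against WT without butyrate (1.02), the interval spanned 1. The size of the difference with butyrate in WT depended on the scaling. Its log2 change was -0.06 as listed, -0.01 with libraries scaled by their median ratio over genes and -0.12 with FPKM rescaled to 1000000 per library.

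Kmt2d (ENSMUSG00000048154, chr15:98831669-98871204, minus strand), which encodes MLL4, had the most fragments of the 10 genes, from 10689 to 14517. Its FPKM was 4.79 in WT control and 5.22 in WT butyrate, with 5.47 in LNCKO control and 5.60 in LNCKO butyrate, so that WT control was the lowest and both LNCKO libraries lay above both WT libraries. The ratio was 1.09 (1.06 to 1.12) with butyrate in WT and 1.02 (1.00 to 1.05) in LNCKO. LNCKO against WT gave 1.14 (1.11 to 1.17) without butyrate and 1.07 (1.05 to 1.1) under it. Kmt2d kept its direction in these comparisons under every scaling tried, but not its size. Its log2 change with butyrate in WT was 0.12 as listed, 0.18 with median-ratio scaling and 0.07 with FPKM rescaled to 1000000 per library. For LNCKO against WT under butyrate these values were 0.10, 0.05 and 0.15. Per kilobase of exon Kmt2d stood at 1.94 times Kmt2c in WT control (1.88 to 2.00) and at 2.17 to 2.21 times in the other libraries.

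Setd1a (ENSMUSG00000042308, chr7:127776670-127800122, plus strand) encodes a promoter H3K4 trimethylase, the counterpart of yeast Set1. Its FPKM was 2.86 in WT control and 2.56 in WT butyrate, with 3.08 in LNCKO control and 2.72 in LNCKO butyrate. Both butyrate libraries lay below both control libraries, with a ratio of 0.892 (0.852 to 0.934) in WT and 0.883 (0.845 to 0.923) in LNCKO. LNCKO against WT stood at 1.08 (1.03 to 1.13) without butyrate and 1.06 (1.02 to 1.11) under it. It was the 1 gene of the 10 whose interval lay below 1 with butyrate in both genotypes.

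That pattern in WT depended on how fragments were assigned at the locus. A separately annotated gene, Gm49388 (ENSMUSG00000108815, chr7:127785608-127803802, plus strand), joins exons of Setd1a to exons of the neighbour Hsd3b7, an enzyme gene of bile acid synthesis. Of its 5240 exon bases 3523 lie on exons of Setd1a, where they make up 51.8% of that gene's exon bases, and the other 1717 lie on exons of Hsd3b7. Gm49388 was listed at 0 in WT control, LNCKO control and LNCKO butyrate, and had 806 fragments in WT butyrate. Hsd3b7 was lowest in the same library. Its FPKM was 9.31 in WT control and 5.21 in WT butyrate, with 8.64 in LNCKO control and 8.81 in LNCKO butyrate. Of all stretches of 100 bases, the stated read length, in the longest coding transcript of Setd1a, 53.7% also occur in transcripts of Gm49388. The sequence below, 100 coding bases at GRCm38 chr7:127795643-127795742 on the plus strand, is printed because a read of it fits both genes equally. It lies in the longest of the 13 exons of a Gm49388 transcript that are contained in Setd1a, one of 1056 bases. No letter is in capitals, since no base tells the genes apart.

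Setd1a and Gm49388: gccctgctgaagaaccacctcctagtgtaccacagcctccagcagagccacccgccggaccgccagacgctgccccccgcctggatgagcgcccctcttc

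With the fragments of Gm49388 added to those of Setd1a, the ratio with butyrate in WT turned from 0.892 to 1.09, and LNCKO against WT under butyrate turned from 1.06 to 0.868. The intervals were 1.05 to 1.14 and 0.831 to 0.905, so each left out 1 on the other side than before. For all 3 genes of the locus together these ratios were 0.930 and 1.02. In LNCKO, where Gm49388 was listed at 0 in both libraries, the butyrate ratio of Setd1a stayed at 0.883. The direction for Setd1a in WT butyrate is therefore uncertain, and which transcript the 806 fragments came from was not tested. Among the other 9 genes, 100-base stretches shared in the sense direction with transcripts of another gene made up 0.963% of the longest coding transcript of Kmt2d, 0.791% of that of Rbbp5 and none of the remaining 7. The opposite strand was not searched. There, exons of other annotated genes overlap exons of Kmt2a by 378 bases and exons of Kmt2c by 274.

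**Figure D2:**
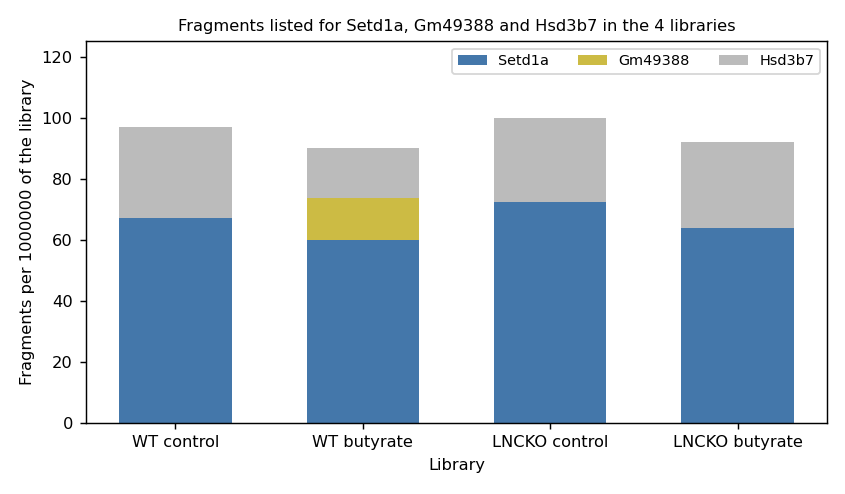
Fragments per 1000000 of the library listed for Setd1a, Gm49388 and Hsd3b7, stacked, in each of the 4 libraries. Gm49388 appears in WT butyrate alone, where the segments of both other genes are shorter than in WT control, and the summed height runs from 90.2 in WT butyrate to 99.9 in LNCKO control.

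Setd1b (ENSMUSG00000038384, chr5:123142193-123168629, plus strand), the paralog of Setd1a, had an FPKM of 3.05 in WT control and 2.58 in WT butyrate, with 2.91 in LNCKO control and 2.82 in LNCKO butyrate. WT butyrate stood below the other libraries. The butyrate ratio in WT was 0.844 (0.809 to 0.881), whereas in LNCKO it was 0.972 (0.932 to 1.01). LNCKO against WT was 0.952 (0.912 to 0.993) without butyrate and 1.1 (1.05 to 1.14) under it. Unlike Setd1a, this gene's longest coding transcript shares no 100-base stretch in the sense direction with transcripts of another annotated gene. Per kilobase of exon the level of Setd1a was 1.48 to 1.67 times that of Setd1b over the libraries.

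Among the core subunits, Wdr5 (ENSMUSG00000026917, chr2:27515157-27536535, plus strand) encodes the WD-repeat protein that binds the enzymes and holds the complex together. Its FPKM was 2.54 in WT control and 2.48 in WT butyrate, with 2.70 in LNCKO control and 2.37 in LNCKO butyrate, so that LNCKO held both the highest and the lowest value. The butyrate ratio was 0.977 (0.929 to 1.03) in WT, with a sign that flipped under median-ratio scaling, and 0.876 (0.834 to 0.921) in LNCKO. LNCKO against WT was 1.06 (1.01 to 1.12) without butyrate and 0.954 (0.909 to 1.00) under it.

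Rbbp5 (ENSMUSG00000026439, chr1:132477365-132505659, plus strand), whose product binds Ash2l and the SET domain, had an FPKM of 2.15 in WT control and 2.33 in WT butyrate, with 2.22 in LNCKO control and 2.30 in LNCKO butyrate. Both butyrate libraries lay above both control libraries. The ratio was 1.08 (1.03 to 1.13) with butyrate in WT and 1.04 (0.990 to 1.08), spanning 1, in LNCKO. For LNCKO against WT the interval spanned 1 both without butyrate (1.03) and under it (0.988), and the sign of the latter flipped when FPKM was rescaled.

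Ash2l (ENSMUSG00000031575, chr8:25815996-25847694, minus strand), a core subunit that with Rbbp5 stimulates the enzymes, had an FPKM of 1.32 in WT control and 1.34 in WT butyrate, with 1.26 in LNCKO control and 1.40 in LNCKO butyrate. Here, too, LNCKO held the lowest and the highest value. Butyrate gave a ratio of 1.01 (0.958 to 1.07) in WT, with a sign that flipped when FPKM was rescaled, and 1.11 (1.05 to 1.17) in LNCKO. The genotypes did not separate beyond counting error, at 0.959 (0.904 to 1.02) without butyrate and 1.05 (0.991 to 1.1) under it.

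Dpy30 (ENSMUSG00000024067, chr17:74299474-74323944, minus strand), the small subunit that docks on Ash2l, had the fewest fragments, 1190 to 1494, and so the widest intervals. Its FPKM was 0.862 in WT control and 0.975 in WT butyrate, with 1.00 in LNCKO control and 0.932 in LNCKO butyrate, so that WT control was the lowest. The butyrate ratio was 1.13 (1.05 to 1.22) in WT and 0.928 (0.861 to 1.00) in LNCKO, the latter just spanning 1. LNCKO against WT was 1.16 (1.08 to 1.26) without butyrate and 0.955 (0.888 to 1.03) under it.

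**Figure D3:**
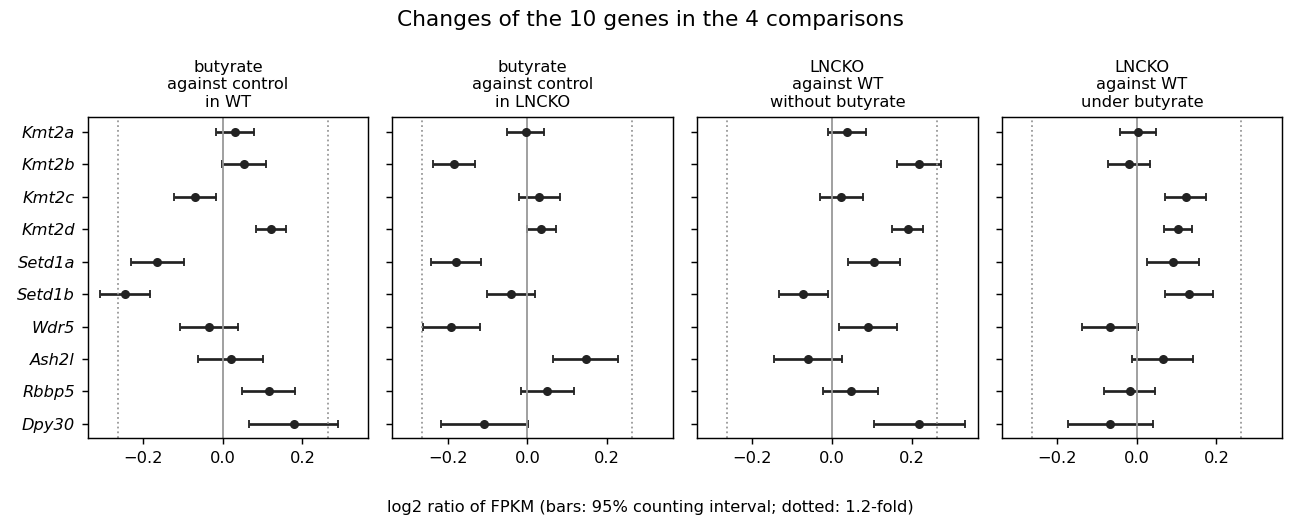
The log2 ratio of FPKM of each of the 10 genes in the 4 comparisons, with bars for the 95% counting interval and dotted lines at 1.2-fold. All points lie inside the dotted lines, and Setd1b with butyrate in WT and Kmt2b and Dpy30 in LNCKO without butyrate lie nearest to them.

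The first comparison addresses what butyrate does in wt cells. Changes across all genes were taken as the log2 ratio of FPKM + 0.1, which is slightly smaller than the plain ratio. Past 1.5-fold in either direction were 0 of the 10 genes, where 2.85% of all genes tested were, and past 1.2-fold were 0 of 10 against 19%. With 10 genes a count of 0 is near the background share for either fold and is no result about these genes, here or in the other comparisons. At least 1.1-fold higher was Dpy30, 1 of 10 against 15.8% of all genes, and at least 1.1-fold lower were Setd1a and Setd1b, 2 of 10 against 30.6%. With the fragments of Gm49388 included, Setd1a stood at a log2 change of 0.13, which left 1 of 10, Setd1b, at least 1.1-fold lower. The median log2 change was 0.02 for the 10 genes (-0.03 with FPKM rescaled to 1000000 per library) and -0.06 for all genes, and the median size of a change regardless of sign was 0.08 and 0.13.

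Butyrate in LNCKO cells shows the same treatment without lncLy6c. Here 0 of the 10 genes passed 1.5-fold and 1.01% of all genes did, and 0 of 10 passed 1.2-fold against 6.21%. None was at least 1.1-fold higher on the log2(FPKM + 0.1) scale, against 9.8% of all genes. Ash2l, with a plain ratio of 1.11, fell just short on that scale. Kmt2b, Setd1a and Wdr5, 3 of 10 against 13.4%, were at least 1.1-fold lower. The median log2 change was -0.02 both for the 10 genes and for all genes, and the median size was 0.07 in both.

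LNCKO against WT without butyrate asks what the loss of lncLy6c goes with in untreated cells. Again 0 of the 10 genes passed 1.5-fold, where 1.6% of all genes did, and 0 of 10 passed 1.2-fold, against 8.13%. Kmt2b, Kmt2d and Dpy30, 3 of 10, were at least 1.1-fold higher against 15.3% of all genes, and 0 of 10 were as much lower against 10.3%. The median log2 change was 0.07 for the 10 genes and 0.02 for all genes, and 8 of the 10 were above 0. The summed fragments of the 6 enzymes were 651.2 per 1000000 in WT control and 649.5 in WT butyrate, with 698.8 in LNCKO control and 682.7 in LNCKO butyrate, a sum in which long transcripts weigh most. The WT butyrate sum leaves out the fragments of Gm49388. With them Setd1a rose in that library from 59.9 to 73.6 per 1000000, enough to turn the order of the WT sums.

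Under butyrate, LNCKO against WT again gave 0 of the 10 genes past 1.5-fold, against 3.32% of all genes, and 0 of 10 past 1.2-fold, against 18.3%. None was 1.1-fold higher or lower as listed, where 29.8% and 14.9% of all genes were. With the fragments of Gm49388 included, 1 of 10, Setd1a, was at least 1.1-fold lower, at a log2 change of -0.20. The median log2 change was 0.03 for the 10 genes (-0.02 with libraries scaled by their median ratio, -0.01 with Gm49388 included) and 0.06 for all genes. The summed fragments of the 4 core subunits were 178.0 per 1000000 in WT control and 185.2 in WT butyrate, with 185.2 in LNCKO control and 182.8 in LNCKO butyrate, a range narrower than that of the enzymes.

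**Figure D4:**
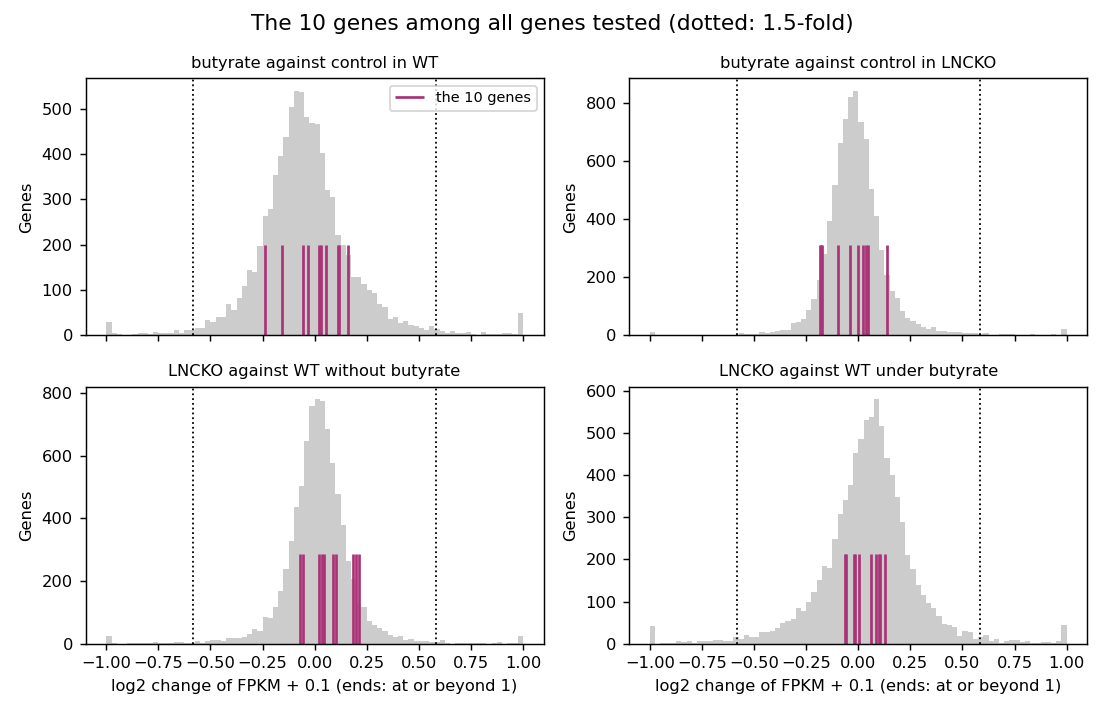
Histograms of the log2 change of FPKM + 0.1 over the 8496 genes tested in each comparison (changes beyond 1 in either direction are drawn at 1), with lines for the 10 genes, Kmt2c included, and dotted lines at 1.5-fold. The 10 lines lie between -0.24 and 0.21 in all panels, inside the dotted lines.

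Since the comparisons share libraries, the butyrate changes were set side by side rather than correlated. The log2 change in WT minus that in LNCKO, from the plain ratios, was highest for Dpy30 at 0.29 (counting interval 0.13 to 0.44), followed by Kmt2b at 0.24 (0.16 to 0.31) and Wdr5 at 0.16 (0.06 to 0.26). It was lowest for Setd1b at -0.20 (-0.29 to -0.12) and Ash2l at -0.13 (-0.24 to -0.01). These values combine all 4 libraries, so a single library that stood apart would show in them: LNCKO control was highest for Kmt2b and Wdr5, WT control lowest for Dpy30, and WT butyrate lowest for Setd1b. As listed, for no gene did the intervals leave out 1 on opposite sides in the 2 genotypes. Setd1a had a difference of 0.01 (-0.08 to 0.11), whose sign flipped when FPKM was rescaled and which became 0.30 on the FPKM + 0.1 scale with the fragments of Gm49388 included. In that case its interval lay above 1 with butyrate in WT (1.05 to 1.14) and below 1 in LNCKO (0.845 to 0.923). The median difference of the 10 genes was 0.05, and that of all genes was -0.03.

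Around the shared core, each enzyme pair carries subunits of its own. All 12 genes listed for these were above the FPKM limit: 0 of 12 passed 1.5-fold with butyrate in either genotype or in LNCKO against WT under butyrate, and 1 of 12, Kdm6a, did so in LNCKO control against WT control, where it was lower. All-gene shares past 1.5-fold were 2.85%, 1.01%, 3.32% and 1.6% in that order, so these counts are near the background and are no result about the list. Kdm6a, the X-linked H3K27 demethylase (UTX) of the Kmt2c and Kmt2d complexes, had an FPKM of 0.847 in WT control and 0.762 in WT butyrate, with 0.527 in LNCKO control and 0.526 in LNCKO butyrate. Its ratio in LNCKO control against WT control was 0.622 (0.596 to 0.650). Its Y-linked paralog Uty had 37, 27, 2051 and 2419 fragments in the same order, and the sum of both genes was 100.1, 89.9, 100.3 and 98.7 fragments per 1000000. The low Kdm6a values thus stood in the libraries with high Uty, those of LNCKO. Bod1, linked to the Setd1b complex, was next lowest in LNCKO control, with a log2 change of -0.38 against WT control, and Hcfc2 and Men1, the gene of menin, which tethers Kmt2a and Kmt2b, were highest, at 0.19 and 0.13.

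With butyrate, the largest difference among the complex-specific subunits was that of Pagr1a, a partner of Paxip1 in the Kmt2c and Kmt2d complexes. Its FPKM was 3.86 in WT control and 4.72 in WT butyrate, with 3.54 in LNCKO control and 4.83 in LNCKO butyrate. Both butyrate libraries lay above both control libraries, with a ratio of 1.22 (1.14 to 1.32) in WT and 1.36 (1.27 to 1.47) in LNCKO. In WT the next highest was Cxxc1, the CpG-binding subunit of the Setd1a and Setd1b complexes, at a log2 change of 0.05, and the lowest were Bod1 at -0.22 and Kdm6a at -0.14. The median log2 change of the 12 genes was -0.07 with butyrate in WT and -0.02 in LNCKO.

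The genes that remove H3K4 methylation were also described. Of 7 listed, 6 passed the FPKM limit and 0 of 6 passed 1.5-fold in any comparison, near the 1.01% to 3.32% of all genes tested that did. Kdm5c, an X-linked demethylase of H3K4me3, came nearest in the genotype comparisons. It had an FPKM of 4.10 in WT control and 4.04 in WT butyrate, with 3.01 in LNCKO control and 2.81 in LNCKO butyrate. Its ratio was 0.733 (0.710 to 0.756) between the genotypes without butyrate. Its Y-linked paralog Kdm5d, which did not pass the limit, had 16, 33, 2563 and 2882 fragments, and the sum of both genes was 170.6, 168.3, 172.9 and 160.6 per 1000000. With butyrate in WT, Riox1 was highest at a log2 change of 0.23 and Kdm5b followed at 0.15, while Kdm1b was lowest at -0.30, followed by Kdm5a at -0.25.

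Of 17 genes for proteins that read H3K4me3, 16 passed the limit, and 1 of 16, Rag2, passed 1.5-fold. It was lower with butyrate in WT and higher in LNCKO butyrate against WT butyrate, beside 2.85% and 3.32% of all genes tested that passed 1.5-fold in these comparisons. A single gene of the 16 is no result about the list. Rag2, part of the recombinase of developing lymphocytes, had 274 fragments in WT control and 79 in WT butyrate, with 306 in LNCKO control and 325 in LNCKO butyrate. WT butyrate was thus the low library, at 0.275 (0.211 to 0.354) of WT control, and it was also the library with the lowest sum of the B cell markers, whose part in this value was not tested. Next lowest with butyrate in WT were Ing3 and Ing2, at log2 changes of -0.37 and -0.36, and highest were Ing5 at 0.15 and Phf2 at 0.05. The median of the 16 genes was -0.14 with butyrate in WT, 0.12 in LNCKO butyrate against WT butyrate and under 0.01 in size in LNCKO control against WT control.

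**Figure D5:**
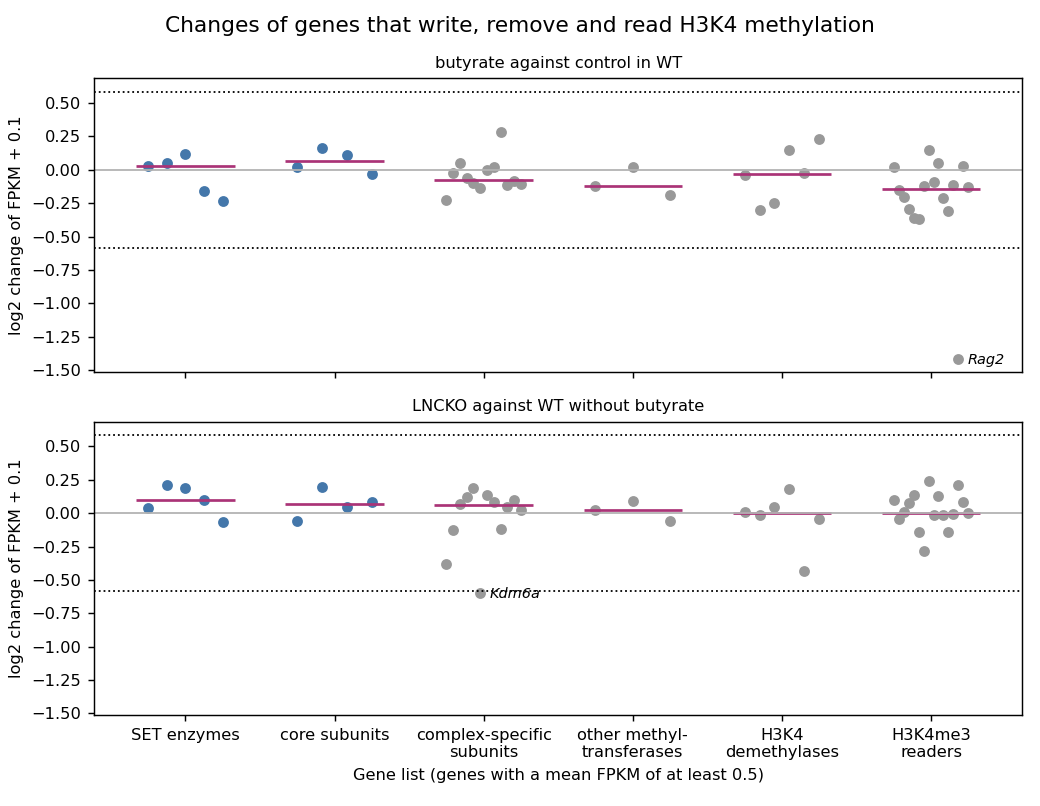
The log2 change of FPKM + 0.1 for genes that write, remove and read H3K4 methylation, with butyrate in WT and in LNCKO control against WT control, as points with a line at each list's median and dotted lines at 1.5-fold. Only Rag2 in the upper panel and Kdm6a in the lower panel lie outside the dotted lines, and the 9 genes of the core complexes shown lie between -0.24 and 0.21.

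Nr4a1, Zfp36 and Runx3 are the genes whose expression the study followed after knockdown of the core. Both Nr4a1 and Runx3 passed 1.5-fold with butyrate in WT and in LNCKO against WT without and under butyrate, but in opposite directions. With butyrate in WT Nr4a1 was lower and Runx3 higher, and in LNCKO against WT Nr4a1 was higher and Runx3 lower. Of all genes tested, 2.85%, 1.6% and 3.32% passed 1.5-fold in these comparisons, in that order. Zfp36 passed it in no comparison. Nr4a1, a nuclear receptor gene, had an FPKM of 0.840 in WT control and 0.511 in WT butyrate, with 1.62 in LNCKO control and 1.23 in LNCKO butyrate, a butyrate ratio of 0.609 (0.549 to 0.674) in WT and 0.759 (0.709 to 0.812) in LNCKO. Zfp36, whose product promotes decay of cytokine mRNAs, had an FPKM of 156.2, 130.3, 170.3 and 163.9 in the same order. Runx3 was listed at 2.85, 5.73, 0.849 and 1.16. Its values were not whole fragments on its annotated span, so they carry no counting interval.

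The 3 genes whose pattern over the libraries was most like the median of the 10 genes, by the distance between their log2 ratios to WT control, were Clint1 (0.00866), Psmb6 (0.00958) and Preb (0.00974). This likeness rests on 4 libraries, and 854 of 6718 genes compared lay within a distance of 0.1, so the pattern was a common one.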

How the data were processed

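RNA of 4 libraries was analysed. The authors deposited FPKM values and no counts. The submitters' processing notes list STAR 2.5.0c, Picard 1.126, bedtools 2.17.0 and HTSeq 0.6.0 and the build GRCm38 (mm10), with no role or order. TRIzol and an MGISEQ-2000 platform are named in the paper, but Illumina protocols, RNeasy and TruSeq in the labels.

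Of 16375 genes, 16342 matched GENCODE M21 on GRCm38. Each library total was the number that turned most FPKM values into whole fragments on the genomic span: 98.4% of matched genes came out whole (within 0.01) in all 4 libraries, against 2.56% on merged exons. Kmt2a was whole with a span 1 base longer than annotated. The FPKM divides by introns too, so long genes read low, and levels between genes were compared per kilobase of exon. The totals were 56392028 fragments in WT control and 59195293 in WT butyrate, with 53363944 in LNCKO control and 65521713 in LNCKO butyrate.

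Ratios were taken between deposited FPKM values, with intervals from the fragments. Changes over all genes used log2(FPKM + 0.1), which understates the change of low genes, and a mean FPKM of at least 0.5. With 1 library per group no test was run. The genes and gene lists were chosen with earlier results of these data known. The text names all 10 genes, list genes past 1.5-fold, up to 2 list genes at either end of a comparison and the 3 most alike genes. Gm49388, Hsd3b7, Uty, Nkg7 and the 3 globin genes fall outside this rule and were added after their values were seen. Other pseudocounts, filters, folds and scalings were tried. The steps were tested on simulated data, and run in Python 3.11.15 (pandas 2.3.3, numpy 2.4.6, scipy 1.17.1, matplotlib 3.10.9).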

Additional observations from a re-analysis of the deposited data

How the results depend on the processing

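Of 255 changes of the 10 genes recomputed under other pseudocounts and scalings, and for Setd1a with Gm49388, 239 stayed within the counting interval of the reported value and 16 did not, 6 of them under median-ratio scaling, 6 under rescaled FPKM, 3 with Gm49388 and 1 with a pseudocount of 1. All 30 recomputed medians stayed within the median half-width of those intervals, medians without Kmt2a included. That width was 0.06 to 0.09, larger than most of the medians themselves, so a median could change sign and still count as within. With butyrate in WT the median went from 0.02 to -0.03 when FPKM was rescaled. For LNCKO against WT under butyrate it went from 0.03 to -0.02 with median-ratio scaling. The count of the 10 genes past 1.5-fold stayed at 0 with a limit of 25% above the lower value and a fold of 1.2 (added after seeing the data). A fold of 2 and a pseudocount of 1 also gave 0, but neither could raise a count of 0, so they are no check of it. With a fold of 1.1, added after seeing the data, it was 3 for butyrate in WT, 3 for butyrate in LNCKO and 3 for LNCKO against WT without butyrate.

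The background counts moved more. Genes past 1.5-fold, higher and lower, were 131 and 111 for butyrate in WT, 58 and 28 for butyrate in LNCKO, 68 and 68 for LNCKO against WT without butyrate and 154 and 128 under butyrate. In the same order they were 68 and 37, 24 and 12, 28 and 26, and 57 and 57 with a pseudocount of 1. Without a filter they were 404 and 264, 226 and 145, 237 and 247, and 328 and 377, over 15855 genes. With a fold of 2 they were 47 and 26, 22 and 12, 26 and 24, and 42 and 41, and with a limit of 25% above the lower value they were 431 and 626, 197 and 133, 252 and 202, and 643 and 430. A mean FPKM of at least 1 left 68 lower genes for butyrate in WT, 36 higher and 15 lower for butyrate in LNCKO, and 42 higher and 32 lower for LNCKO against WT without butyrate. Rescaling FPKM to 1000000 per library gave 130 higher and 182 lower for butyrate in WT, 45 lower for butyrate in LNCKO, and 214 higher and 128 lower for LNCKO against WT under butyrate. Median-ratio scaling turned the split to 166 higher and 90 lower for butyrate in WT and to 119 and 158 for LNCKO against WT under butyrate.

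No paired analysis was possible because each group holds 1 library, and leaving out a library would empty its group. Depth limits the finest statements for Dpy30, with the fewest fragments. Spread between libraries of a group is unknown, so a difference beyond counting error need not be one between conditions.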

Other observations

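PRC2, the complex that methylates lysine 27 of histone H3 and opposes the H3K4 writers at many promoters, was described through 11 genes, all above the FPKM limit. None of them passed 1.5-fold in any of the 4 comparisons, near the 1.01% to 3.32% of all genes tested that did. Ezh2, its main enzyme, had an FPKM of 1.21 in WT control and 1.01 in WT butyrate, with 1.32 in LNCKO control and 1.14 in LNCKO butyrate, so that both butyrate libraries lay below both control libraries. Its log2 change with butyrate was -0.24 in WT and -0.20 in LNCKO. The other low values were those of Mtf2, an accessory subunit, at -0.35 with butyrate in LNCKO, and of Phf19 at -0.18 in WT. Ezh1, the paralog of Ezh2, stood at 0.08 in WT and 0.03 in LNCKO. The median of the 11 genes was -0.13 with butyrate in WT and -0.03 in LNCKO, beside all-gene medians of -0.06 and -0.02.

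Of 8 other lysine methyltransferases linked to H3K4, 3 passed the FPKM limit (Ash1l, Kmt2e and Setd7) and 0 of 3 passed 1.5-fold in any comparison. Of 10 proliferation genes, 0 passed 1.5-fold, and both counts are near the same background shares. Their median log2 change was -0.17 with butyrate in WT, where Ccna2 was lowest at -0.42 and Mcm2 highest at 0.19, and -0.08 in LNCKO.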
